A study of Mus musculus with 6 samples.

Results

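The 41 genes described here encode parts of the lysosome and of the autophagy machinery, and were followed in P14 cytotoxic T cells that carry a phosphorylation-deficient form of HDAC7. The rule for membership goes by gene name (lysosomal enzymes, membrane proteins, proton pump subunits and autophagy proteins) and uses no measured value. On the Affymetrix mouse genome array 40 of them have a probe set that the array's annotation assigns to 1 gene alone, and Cd63 was not analysed here. The brightest probe set of each gene, by its mean over the 6 arrays, represents it, and all 40 passed the level set for dim genes, as did 13194 of the 18193 genes measured in all.

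P14 mice, here on C57Bl/6, carry a transgenic T cell receptor against gp33, a peptide of lymphocytic choriomeningitis virus, and most of their CD8 T cells respond to it. Spleen cells of these mice were stimulated with gp33 for 24 h, then given a retrovirus for a GFP-tagged HDAC7 that cannot be phosphorylated. Phosphorylation normally moves HDAC7, a class IIa deacetylase and repressor of transcription, out of the nucleus. Cell sorting gave 3 GFP positive samples, expressing the tagged mutant, and 3 GFP negative samples, which serve as control. Both groups thus came from cells given the same gp33 stimulation and the same virus, and no empty-vector cells were analysed here. Whether the sorted cells of both groups were equally activated was not tested. The labels number the samples as biological replicates, but the sources used here give neither the age and number of the mice nor the promoter that drives the construct. P-values therefore measure the spread between these samples only.

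Lysosomes are acidic compartments in which hydrolases degrade proteins, sugars and lipids, and a vacuolar ATPase in their membrane pumps in the protons. Autophagy delivers cytoplasmic cargo to them in vesicles whose membrane carries lipid-linked proteins of the ATG8 family. Many of these genes are targets of the transcription factors TFEB and TFE3, which the kinase mTORC1 on the lysosome surface keeps out of the nucleus, and in cytotoxic T cells the granules that hold perforin and granzymes are lysosomes adapted for secretion.

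TFEB and TFE3 bind an element of lysosomal gene promoters whose core letters are TCACGTGA. Sequences of the 300 bases from 250 before to 50 after an annotated start were taken from RefSeq (GRCm38.p6) and were found for 36 of the 41 members. The core letters, which read the same on both strands, were present in 5 of the 36 (13.9%), against 2.01% of the 10609 tested genes with such a sequence and 1.12% of all genes in the table. The letters were already known from lysosomal genes, so a higher share among members chosen by name is no separate result. The shorter E-box CACGTG, which lies inside the core letters, was present in 11 members (30.6%), against 11.2% of the tested genes. The stretches of 60 bases around the core letters are shown for all 5 members that hold them, whatever their change. Of these, Ctsd, Mcoln1 and Atp6v0d1 rose in GFP positive cells, while Ctsa and Atp6v1a did not pass the test. The stretches are written 5′ to 3′ along the gene, in lower case, with the core letters in capitals.
Ctsa, chr2:164833742-164833801, plus strand: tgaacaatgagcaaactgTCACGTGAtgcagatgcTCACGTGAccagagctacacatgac
Ctsd, chr7:142387893-142387952, minus strand: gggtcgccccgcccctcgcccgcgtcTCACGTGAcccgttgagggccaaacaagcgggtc
Mcoln1, chr8:3500447-3500506, plus strand: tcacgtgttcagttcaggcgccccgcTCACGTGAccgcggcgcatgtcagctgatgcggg
Atp6v0d1, chr8:105566035-105566094, minus strand: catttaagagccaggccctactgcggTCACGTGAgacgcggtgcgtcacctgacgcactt
Atp6v1a, chr16:44139358-44139417, minus strand: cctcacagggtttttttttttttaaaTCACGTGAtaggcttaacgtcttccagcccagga

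The core letters begin 99 bases before the annotated start in Ctsd, 46 before it in Mcoln1, 4 before it in Atp6v0d1 and 132 before it in Atp6v1a. Ctsa holds them at 2 places, 13 bases before and 4 bases after the second of its 2 annotated starts. By call, 3 of 19 rising members with a sequence held the core letters (15.8%), 0 of the 2 falling members and 2 of 14 that did not pass (14.3%). The shares of rising members and of those that did not pass are close. The E-box was present in 4 of 19 rising members (21.1%), 1 of 2 falling members and 6 of 14 that did not pass (42.9%). In the related lists described below, 4 of 40 rising genes held the core letters (10%), 0 of 11 falling and 6 of 45 that did not pass (13.3%). A match describes these letters in this window and shows no binding.

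The median log2 value over all probe sets but the controls was 1.62 to 1.66 in GFP positive and 1.69 to 1.72 in GFP negative samples. These groups do not overlap (two-sided exact permutation p = 0.1). Over the probe sets past the dim level the medians were higher in GFP positive samples instead. Centring the arrays on those medians lowered every change, that of Ctsb from 0.53 to 0.42. Probe sets for the bacterial control TrpnX averaged 0.66 ± 0.06 and 0.64 ± 0.03 (log2, SD, n = 3 each), so values under about 2 lie close to background. Hybridisation control transcripts added to every array were brighter in GFP positive samples, at 8.18, 8.22 and 8.50, than in GFP negative samples, at 8.10, 8.14 and 8.07, and 18S RNA ranged from 8.74 to 9.25 and from 8.87 to 9.98 (two-sided exact permutation p = 0.1 and 0.2, where 0.1 is the smallest that 3 against 3 samples allow). GFP positive 3 had the highest of the hybridisation values and GFP negative 1 the highest of the 18S values, so the counts are also given without both. On the probe set that represents it, Hdac7 stood at 8.15 in GFP positive and 4.83 in GFP negative cells, a rise of 3.32 ± 0.07 (log2, SE; limma adjusted p = 9.71e-07), and whether it reads the construct, the cell's own gene or both was not tested. The T cell gene Cd3d was bright in both groups, at 10.3 and 10.4.

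GFP positive cells had more transcript of many lysosomal genes. Progranulin, saposin precursor, cathepsins D, S and B, the protease TPP1 and the lipase LIPA were among the genes that rose, and so were the ATG8-family genes Gabarap and Gabarapl2 and the conjugation gene Atg12. Of the 40 members, 21 rose and 2, the glycosidase genes Gaa and Gusb, fell. The transcription factor genes Tfeb and Tfe3 did not pass. Across the array 24.6% of genes tested rose and 17.5% fell, against 52.5% and 5% of the members, and in either direction 42.1% of genes and 23 of 40 members changed. These shares depend on the dim level, as dim genes are included. With a stricter level, the 60th percentile, 33.1% of 9879 genes rose and 20.2% fell, against 20 and 2 of 39 members. The test was limma, fitted across all genes tested, with a Benjamini-Hochberg adjusted p under 0.05. The median change was 0.31 over the members and -0.02 over all genes tested (log2, GFP positive minus GFP negative), and 0.30 and 0.06 with the stricter level. In bulk samples of sorted cells, a different mix of cells and a different amount of RNA per cell cannot be told apart.

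In 24 members all GFP positive samples lay above all GFP negative samples and in 3 they all lay below, while over the array these shares were 29.7% and 24.2%. Most rises were less than 2-fold. A rise of at least 1 on the log2 scale was found for 3 of 40 members (Grn, Gabarap and Cd68), or 7.5%, against 3.69% of all genes tested, and for 2 without Cd68, whose GFP negative samples lie near background. The median size of the change was 0.61 among called members and 0.52 among all called genes. Without GFP positive 3 and GFP negative 1, 16 members rose and 2 fell, against 15.8% and 9.55% of genes tested. After the median centring described above, which lowered every change, 15 members rose and 3 fell, when 19% and 28.9% of all genes did. The median of all genes then moved to -0.14.

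**Figure D1:**
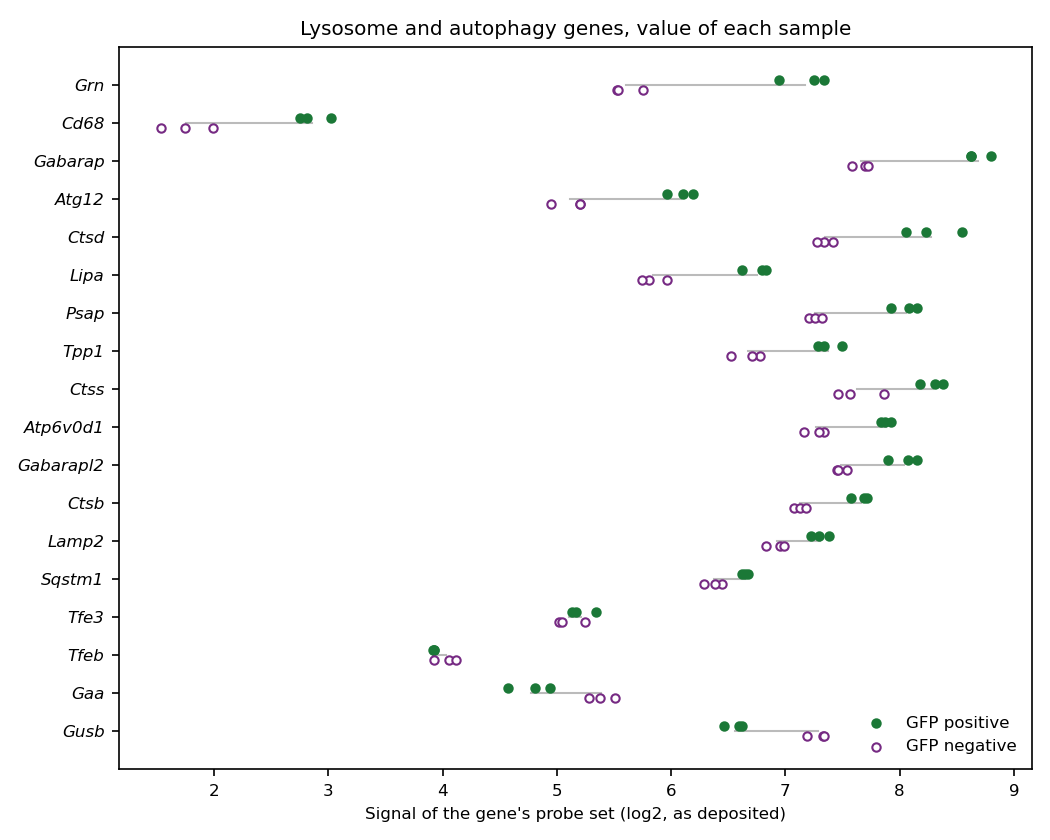
Signal of each sample (log2, as deposited, x axis) for the members that changed by at least 0.5 and for Tfeb, Tfe3, Sqstm1 and Lamp2, in order of their change, with 3 GFP positive samples as filled points above 3 GFP negative samples as open points; the grey line joins the group means. The groups are separate for every gene shown except Tfe3 and Tfeb, and only Gaa and Gusb lie lower in all GFP positive samples.

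The lysosomal proteases were the most uniform group of hydrolases, with 5 of 7 genes higher and 0 lower. Ctsd encodes cathepsin D, an aspartic protease that also processes other hydrolases. It had 8.54, 8.24 and 8.06 in GFP positive samples, against 7.34, 7.28 and 7.42 in GFP negative samples, a rise of 0.93 ± 0.13 (log2, SE) or 1.91-fold (limma adjusted p = 0.000811). Its groups do not overlap, although the GFP positive samples spread over more than the GFP negative ones. Ctss, the gene of cathepsin S, a cysteine protease of antigen processing, had 8.31, 8.18 and 8.38 in GFP positive samples, against 7.56, 7.46 and 7.86 in GFP negative samples, a rise of 0.66 ± 0.12 (limma adjusted p = 0.00305). Tpp1, which encodes a tripeptidyl peptidase lost in a form of neuronal ceroid lipofuscinosis, had 7.29, 7.34 and 7.49 in GFP positive samples, against 6.53, 6.78 and 6.71 in GFP negative samples. The rise was 0.70 ± 0.10 (limma adjusted p = 0.00098), and a second Tpp1 probe set rose by 0.92. For Ctsb, the gene of cathepsin B, the values were 7.71, 7.58 and 7.69 in GFP positive samples, against 7.07, 7.13 and 7.18 in GFP negative samples. It rose by 0.53 ± 0.08 (limma adjusted p = 0.00129), but its 3 other probe sets past the dim level changed by 0.18 to 0.56 and the mean over its probe sets by 0.25.

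Ctsz, encoding cathepsin Z, rose by 0.32 (limma adjusted p = 0.0278), the smallest rise of the proteases that passed. It lost its call without any single sample other than GFP positive 1, with changes of 0.24 to 0.35, without GFP positive 3 and GFP negative 1 together (0.33), and after median centring (0.21). Ctsa, the gene of the carboxypeptidase that protects beta-galactosidase and neuraminidase, differed by 0.18 (limma adjusted p = 0.117) with no overlap between groups, but its dim second probe set changed by -0.30 (not called) and the mean of its probe sets by -0.06. Ctsl, encoding cathepsin L, differed by 0.33 (adjusted p = 0.0803). In Ctsl, GFP negative 2 at 5.33 lay among the GFP positive samples at 5.29 to 5.38, and without it the difference was 0.49 and passed (adjusted p = 0.00844).

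Enzymes that act on sugars and lipids moved in both directions. Lipa encodes lysosomal acid lipase, which frees cholesterol and fatty acids from lipoprotein lipids, and its 3 probe sets all rose. On the brightest it had 6.80, 6.62 and 6.83 in GFP positive samples, against 5.81, 5.75 and 5.97 in GFP negative samples, a rise of 0.91 ± 0.10 or 1.88-fold (limma adjusted p = 0.000284). The other Lipa probe sets rose by 0.75 and 0.76. Glb1, the beta-galactosidase gene, rose by 0.45, and Man2b1, the alpha-mannosidase gene, by 0.45, with a second Man2b1 probe set rising by 0.85. All GFP positive samples of both genes lay above the GFP negative ones.

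Gusb and Gaa were the members that fell, and each did so on both of its probe sets. Gusb encodes beta-glucuronidase. It had 6.46, 6.62 and 6.59 in GFP positive samples, against 7.19, 7.33 and 7.34 in GFP negative samples, a change of -0.73 ± 0.09 or 1.66-fold less (limma adjusted p = 0.000434), and its second probe set changed by -0.76. For Gaa, the gene of acid alpha-glucosidase that breaks down glycogen in lysosomes, GFP positive samples had 4.94, 4.81 and 4.57, against 5.38, 5.51 and 5.28 in GFP negative samples. The change was -0.62 ± 0.11 (limma adjusted p = 0.00351), and -0.68 on the second probe set. When 32 was added on the linear scale, which dampens dim signals, Gaa changed by -0.32 and Glb1 by 0.27. Hexa, encoding a chain of beta-hexosaminidase, and Naglu, encoding a glucosaminidase of heparan sulfate breakdown, differed by -0.07 and 0.09 with overlapping groups and did not pass.

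The activator and secreted proteins of the lysosome all rose. Grn, encoding progranulin, a secreted and lysosomal glycoprotein that is cut into granulins, had the largest rise among the members. GFP positive samples had 6.94, 7.34 and 7.25, against 5.53, 5.75 and 5.54 in GFP negative samples. The rise was 1.57 ± 0.12 (log2, SE) or 2.97-fold (limma adjusted p = 9.38e-05), and 2 further probe sets rose by 1.67 and 1.62. Psap encodes prosaposin, the precursor of the saposins that help hydrolases reach sphingolipids, and had 8.09, 7.92 and 8.16 in GFP positive samples, against 7.20, 7.26 and 7.32 in GFP negative samples. It rose by 0.80 ± 0.09 or 1.74-fold (limma adjusted p = 0.000343), and by 0.75 on its second probe set. Npc2, whose product carries cholesterol inside the lysosome, rose by 0.30, close to the threshold (limma adjusted p = 0.0428). Npc2 lost its call without GFP positive 1 or 3 or GFP negative 2 or 3 (0.25 to 0.29), without GFP positive 3 and GFP negative 1 together (0.33), with the mean of its probe sets (0.27), after median centring (0.19) and with no filter on dim genes.

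**Figure D2:**
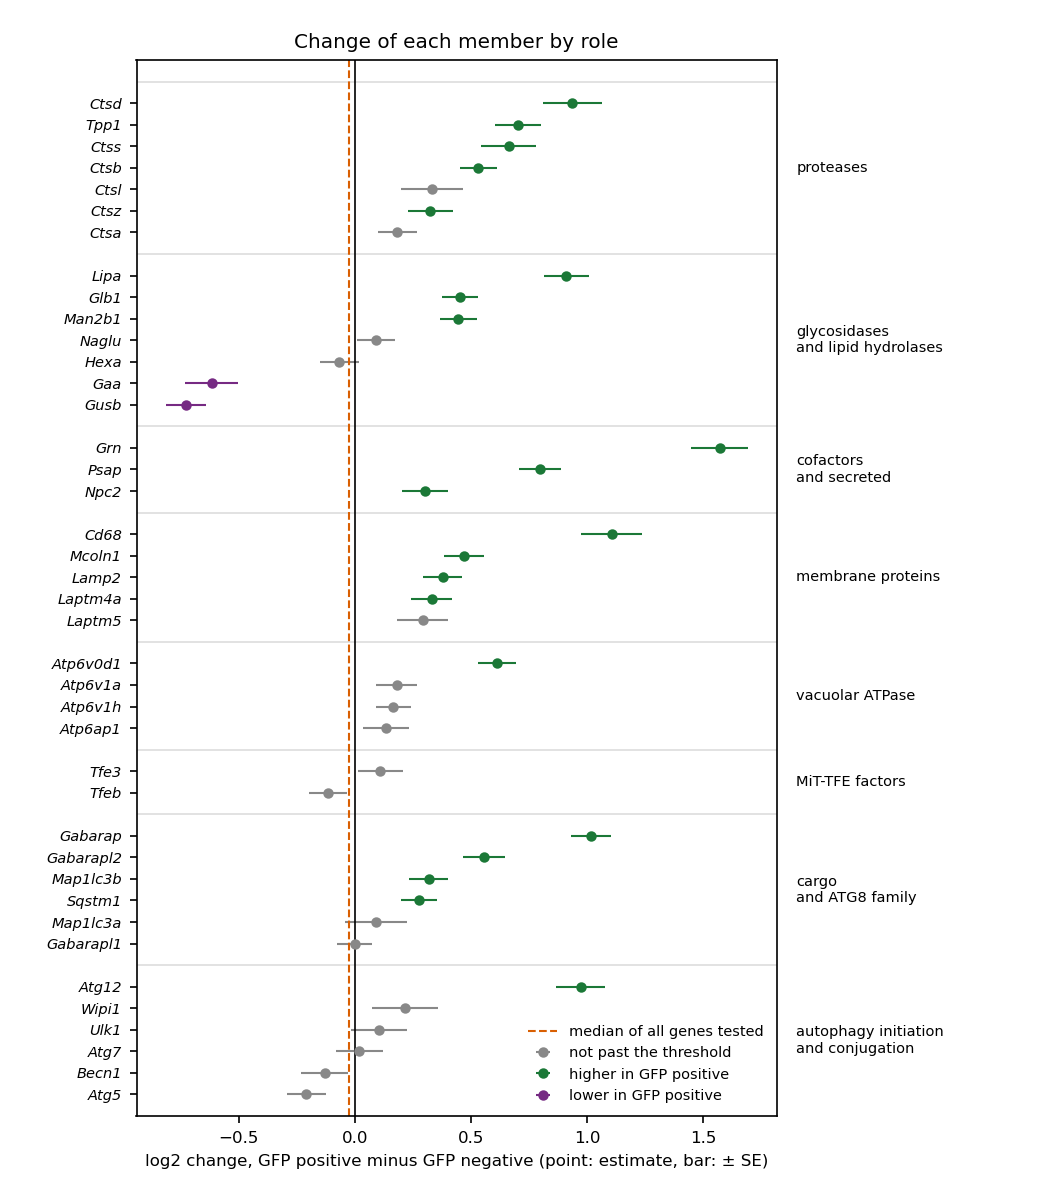
Change of each of the 40 members (log2, GFP positive minus GFP negative, x axis; bars are SE from limma), grouped by role, with the median of all genes tested as a dashed line. Proteases, cofactors and membrane proteins lie to the right of 0, from 0.18 to 1.57, while the other hydrolases, MiT-TFE factors and autophagy initiation genes lie on both sides.

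Among membrane proteins of the lysosome 4 of 5 rose. Lamp2, a heavily glycosylated protein needed for chaperone-mediated autophagy and for fusion with autophagosomes, had 7.39, 7.29 and 7.23 in GFP positive samples, against 6.95, 6.83 and 6.99 in GFP negative samples. The rise was 0.38 ± 0.08 (limma adjusted p = 0.00864), and its 3 other probe sets changed by 0.30 to 0.56. After median centring Lamp2 changed by 0.26 and did not pass (adjusted p = 0.0555). Mcoln1, the gene of the calcium channel TRPML1, rose by 0.47 (0.25 with 32 added, 0.31 after quantile normalization), with GFP positive samples at 5.41 to 5.56 above GFP negative samples at 4.91 to 5.06, and its other probe sets changed by 0.20 (not called) and 0.85. Laptm4a, a small membrane protein gene, rose by 0.33 and lost its call without GFP positive 3 (0.27), GFP negative 2 (0.29) or GFP negative 3 (0.32), without GFP positive 3 and GFP negative 1 together (0.32), and after median centring (0.21). Laptm5, a blood cell protein that promotes degradation of the T cell receptor zeta chain, did not pass on its brightest probe set (0.29, limma adjusted p = 0.0655). Its next brightest probe set, at 9.08 in GFP positive and 8.51 in GFP negative samples, rose by 0.57. It was called in a fit of all probe sets (limma adjusted p = 0.00607). Other Laptm5 probe sets past the dim level changed by 0.33 and, at 3.13 and 3.96, by -0.84, and were not called. The brightest passed without GFP positive 2 (0.40), after quantile normalization (0.31) and with the trend and robust prior.

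Cd68, a lysosomal membrane glycoprotein best known from macrophages, was dim. It had 2.75, 2.81 and 3.02 in GFP positive samples, against 1.99, 1.74 and 1.53 in GFP negative samples, a rise of 1.11 ± 0.13 (limma adjusted p = 0.000434) that became 0.15 with 32 added in linear units. Ctss and Grn are also abundant in macrophages. Of 14 macrophage and monocyte markers 0 rose and 1, Fcer1g, fell, and 8 were under the dim level, among them Adgre1, Cd14 and Itgam. Their summed linear signal was 41.3 to 44.9 in GFP positive and 46.2 to 49.3 in GFP negative samples. Lyz2 stood at 1.79 and 1.77, close to background. Among dendritic cell markers 0 of 8 past the dim level rose and 3 fell, with sums of 87.7 to 106.8 and 76.1 to 109.8. The 3 that fell, Flt3, Zbtb46 and Siglech, were dim, with group means of 1.64 to 2.54. H2-Ab1, the brightest of that list, stood at 5.94 and 5.54. It was higher in every GFP positive sample, by 0.40 on average, and did not pass (limma adjusted p = 0.0764). The dimmer H2-Eb1, H2-Aa and Cd74 of that list changed the other way, by -0.49, -0.89 and -0.14, and did not pass either. Of 6 T cell genes other than Cd2, which changed by -1.03, Cd3e, Cd3g, Cd8a and Cd8b1 rose by 0.55, 0.67, 1.24 and 1.15. Cd3d and Thy1 did not pass. The part of these changes in the lysosomal rises was not tested.

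Of the proton pump genes 1 of 4 rose, a share of 25% that is close to the 24.6% of all genes tested. Atp6v0d1 encodes subunit d of the membrane sector and had 7.93, 7.84 and 7.87 in GFP positive samples, against 7.17, 7.34 and 7.30 in GFP negative samples, a rise of 0.61 ± 0.08 or 1.53-fold (limma adjusted p = 0.000769). Atp6v1a and Atp6v1h, of the catalytic sector in the cytosol, and the accessory subunit gene Atp6ap1 had changes of 0.18, 0.17 and 0.13 and did not pass. With 32 added, Atp6v1h passed at a change of 0.14.

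Tfeb and Tfe3, the factors that drive many of these genes, showed no change past the threshold. Tfeb was listed at exactly the same value, 3.92, in GFP positive 1 and 3 and GFP negative 1, and at 3.92 in GFP positive 2, against 4.06 and 4.12 in the other GFP negative samples. The difference was -0.11 ± 0.08 (limma adjusted p = 0.291), and -0.26 after quantile normalization, which passed (adjusted p = 0.0383). Tfe3 had 5.17, 5.13 and 5.34 in GFP positive samples, against 5.02, 5.05 and 5.25 in GFP negative samples, a difference of 0.11 ± 0.10 (limma adjusted p = 0.392). The groups overlap in both genes, and transcript levels do not show where the proteins are in the cell.

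In the autophagy machinery the ATG8 family was split. Gabarap, whose product joins the autophagosome membrane and binds cargo receptors, had 8.63, 8.63 and 8.80 in GFP positive samples, against 7.58, 7.70 and 7.72 in GFP negative samples. It rose by 1.02 ± 0.09 or 2.02-fold (limma adjusted p = 0.000127) and has a single probe set. Gabarapl2 had 8.08, 7.90 and 8.15 in GFP positive samples, against 7.46, 7.46 and 7.54 in GFP negative samples, a rise of 0.56 ± 0.09 (limma adjusted p = 0.00199). Its dim second probe set changed by -0.07, and the mean over its probe sets, 0.24, did not pass. Gabarapl1 differed by less than the spread between samples, with 6.15 to 6.21 in GFP positive and 6.13 to 6.22 in GFP negative samples. Map1lc3b, encoding LC3B, rose by 0.32 on its brightest probe set (limma adjusted p = 0.0186) and by 0.86 on each of 2 others (0.50 as a mean of its probe sets), while Map1lc3a differed by 0.09 and did not pass. On the brightest probe set the call of Map1lc3b was lost without GFP positive 3 (0.28), GFP negative 1 (0.27) or GFP negative 3 (0.32), without GFP positive 3 and GFP negative 1 together (0.23), and after median centring (0.20).

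Sqstm1 encodes p62, which links ubiquitinated cargo to the ATG8 proteins. It had 6.62, 6.68 and 6.64 in GFP positive samples, against 6.45, 6.39 and 6.29 in GFP negative samples, a rise of 0.27 ± 0.08 (limma adjusted p = 0.0242). The groups are separate, but the call was lost without GFP positive 2 or 3 or GFP negative 2 or 3 (0.23 to 0.28), without GFP positive 3 and GFP negative 1 together (0.31), with the mean of its probe sets (0.16), after quantile normalization (0.18) and after median centring (0.16).

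Of the 6 genes for initiation and conjugation 1 rose (16.7%, against 24.6% of all genes tested). Atg12 encodes the ubiquitin-like protein that is joined to ATG5 to attach the ATG8 proteins to lipid. GFP positive samples had 6.11, 5.97 and 6.19, against 4.95, 5.21 and 5.20 in GFP negative samples, a rise of 0.97 ± 0.10 or 1.96-fold (limma adjusted p = 0.000297). Its second probe set, at 3.89 and 3.70, changed by 0.19 and did not pass, the mean of its probe sets rose by 0.40, and with 32 added the rise was 0.58. Atg5, its partner, differed by -0.21 (limma adjusted p = 0.0751) with all GFP positive samples below the GFP negative ones, and passed after quantile normalization (-0.35), after median centring (-0.32) and with 32 added (-0.12). Atg7, the activating enzyme of the conjugation, differed by 0.02, the initiating kinase gene Ulk1 by 0.10, Becn1, of the lipid kinase complex, by -0.13 and Wipi1, which binds the lipid that kinase makes, by 0.22. None of these 4 passed, and their groups overlap.

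Second probe sets give a partial check on the members. Of the 40 genes, 28 have more than 1 probe set, and 27 second probe sets past the dim level belong to called members. Of these, 16 were called the same way, 11 did not pass and 0 were called the opposite way, in a fit of 23018 probe sets in which 34.7% were called. Among the 27, 25 had the sign of the probe set that represents the gene.

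**Figure D3:**
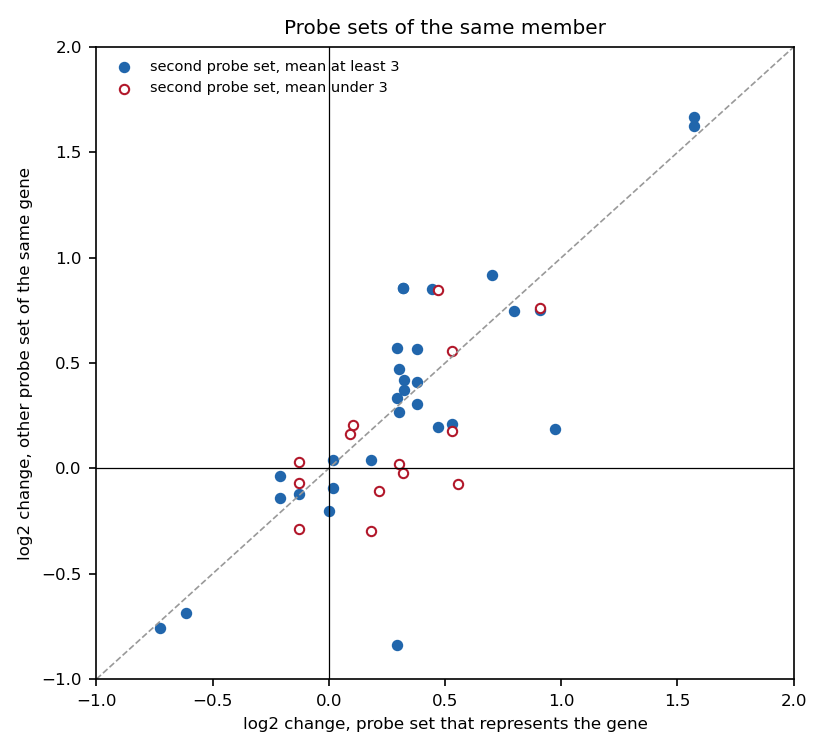
Change of the probe set that represents a member (x axis) against the change of each other probe set of the same gene past the dim level (y axis), both log2, GFP positive minus GFP negative; filled points have a mean log2 signal of at least 3 (30 probe sets), open points a mean under 3 (14 probe sets), and the dashed line marks equal changes. The Grn points lie near the line at the upper right, those of Gusb and Gaa near it at the lower left, and a Laptm5 probe set lies far below it at -0.84.

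Beyond the members, 116 tested genes in 7 related lists gave 45 rises and 11 falls, with a median of 0.19, and 32 rises and 16 falls after median centring. The share that rose was 38.8% and the share that fell 9.48%, against 24.6% and 17.5% of all genes tested. Without GFP positive 3 and GFP negative 1 the counts were 31 and 7. With the replicate number as a block they were 46 and 12: the calls of Asah1, Ap3b1 and Atg101 were lost, Npc1, Clcn7, Atp6v1g1 and Pink1 were called higher and Neu1 lower. Where adding 32 on the linear scale shrank a change by more than 1.5 times, that value follows in brackets. Of 23 other hydrolases 9 rose and 4 fell (39.1% and 17.4%). Ctso, a cysteine protease gene, rose by 1.31 (0.65 with 32 added), Ids, the iduronate sulfatase gene, by 0.75 (0.49, and 0.17 and not called as a mean of its probe sets) and Arsa, the sulfatase gene of sulfatide breakdown, by 0.63 (0.30). Arsb, encoding a sulfatase of dermatan sulfate, fell to 4.68, 4.50 and 4.48 in GFP positive samples, against 5.94, 5.84 and 5.78 in GFP negative samples, a change of -1.30 ± 0.09 (-0.69, limma adjusted p = 6.34e-05). Pla2g15, a lysosomal phospholipase gene, and Galc, the galactocerebrosidase gene, changed by -0.35 (-0.09) and -0.72 (-0.11), and Pla2g15 lost its call without GFP positive 3 and GFP negative 1. As means of their probe sets Ctso rose by 0.71 and Arsb changed by -0.83.

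Of the 21 genes of the membrane and sorting list 7 rose and 3 fell (33.3% and 14.3%). The falls were in Gnptab, Nagpa and Gga2, which serve the mannose 6-phosphate tag that directs hydrolases to lysosomes, a grouping made after the values were seen. Gnptab, encoding the catalytic subunits of the enzyme that adds the tag, had 4.61, 4.48 and 4.59 in GFP positive samples, against 5.97, 6.33 and 6.03 in GFP negative samples. The change was -1.55 ± 0.11 (limma adjusted p = 7.15e-05), -0.86 with 32 added, and -1.32 on a second probe set. Nagpa, whose product uncovers the tag, changed by -0.68 (-0.38, and -0.41 as a mean of its probe sets), and Gga2, an adaptor that sorts the tag's receptors at the Golgi, by -1.14 (-0.60). Gnptg, encoding the gamma subunit of the tagging enzyme, rose by 0.43 (0.19), a call lost without GFP negative 1 (0.39), without it and GFP positive 3 (0.29), and after quantile normalization (0.27). The receptor genes M6pr and Igf2r had changes of 0.05 and -0.26 that did not pass. Gnptg, M6pr, Igf2r and Gga1 were picked after their values were seen. Gga1, of the same adaptor family as Gga2, differed by 0.20 with no overlap between groups and did not pass. Among the rises of that list, Cln3, a lysosomal membrane protein gene, rose by 1.18 (0.54, and 0.56 as a mean of its probe sets), Mfsd8, a lysosomal transporter-like gene near background in the control, by 0.83 (0.10) and Cd164, a sialomucin gene, by 0.37. Cd164 was not called as a mean of its probe sets (0.15), after median centring (0.26) or without GFP positive 3 and GFP negative 1 (0.38).

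Of 12 further proton pump genes 3 rose and 0 fell, and the 25% that rose is again close to the 24.6% of all genes tested. These were Atp6v1d, which rose by 0.82 and by 0.81 and 0.97 on 2 more probe sets, Tcirg1, encoding the a3 subunit of the membrane sector, by 0.90 (0.56 with 32 added), and Atp6v1e1 by 0.32 (not called as a mean of its probe sets, 0.16, or after median centring, 0.21). In the autophagy core 11 of 23 rose and 0 fell. Rb1cc1, the gene of the ULK1 partner FIP200, rose by 0.97 (0.31, and 0.58 as a mean of its probe sets), Atg4d, of the proteases that process ATG8 proteins, by 0.57 (0.34, and 0.31 as a mean) and Atg9a, encoding a membrane protein that supplies lipid to the growing vesicle, by 0.61 (0.20). Cargo receptor and mitophagy genes gave 3 rises and 1 fall among 8. Nbr1, a p62-like receptor gene, rose by 0.96, Tollip by 0.46 and Tax1bp1 by 0.44 (not called as a mean of its probe sets, 0.09, or without GFP positive 3 and GFP negative 1, 0.44), while Phb2, the prohibitin gene of the inner mitochondrial membrane, changed by -0.71. Pink1, the gene of a kinase that marks damaged mitochondria, did not pass in the comparison without the block (limma adjusted p = 0.121), where its groups overlap, but GFP positive exceeded GFP negative samples of the same number by 0.81, 0.68 and 0.77, and with the block it rose by 0.75 ± 0.07 (limma adjusted p = 0.00102). It was picked after its values were seen. In the fusion and tethering list 6 of 12 rose and 0 fell, with Vps41 at 0.56 (0.36) and Vps39 at 0.55 (0.34), both of the HOPS tether, and Epg5, another tether gene, at 0.63 (0.20).

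The list of MiT-TFE genes, mTORC1 control at the lysosome and other regulators of autophagy genes gave 6 rises and 3 falls among 17 (35.3% and 17.6%), a share of falls close to the 17.5% of all genes tested. The falls were in Flcn, Fnip1 and Fnip2 of the folliculin complex, a grouping made after the values were seen, which acts on Rag GTPases at the lysosome and promotes the phosphorylation of TFE3 and TFEB. Fnip2 fell to 2.85, 2.80 and 2.83 in GFP positive samples, against 4.06, 4.15 and 4.06 in GFP negative samples, a change of -1.26 ± 0.07 (limma adjusted p = 3.91e-05), or -0.33 with 32 added. Fnip1 changed by -0.79 (-0.43) and by -0.83 on its second probe set, and Flcn by -0.35 (-0.18) and by -0.11, not called, on its second. Flcn lost its call without GFP positive 2 (-0.32), GFP positive 3 (-0.31) or GFP negative 2 (-0.33), and both Fnip1 (-0.67) and Flcn (-0.31) lost theirs without GFP positive 3 and GFP negative 1 together. Foxo3, a transcription factor gene that promotes autophagy genes, rose by 0.88 (0.48 as a mean of its probe sets), Zkscan3, encoding a repressor of autophagy genes in human cells, by 0.78 (0.45) and Lamtor4, of the Ragulator scaffold, by 0.44, and the other rises were in Lamtor1, Lamtor2 and Slc38a9. Mtor and Rptor had changes of 0.15 and -0.16 and did not pass.

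**Figure D4:**
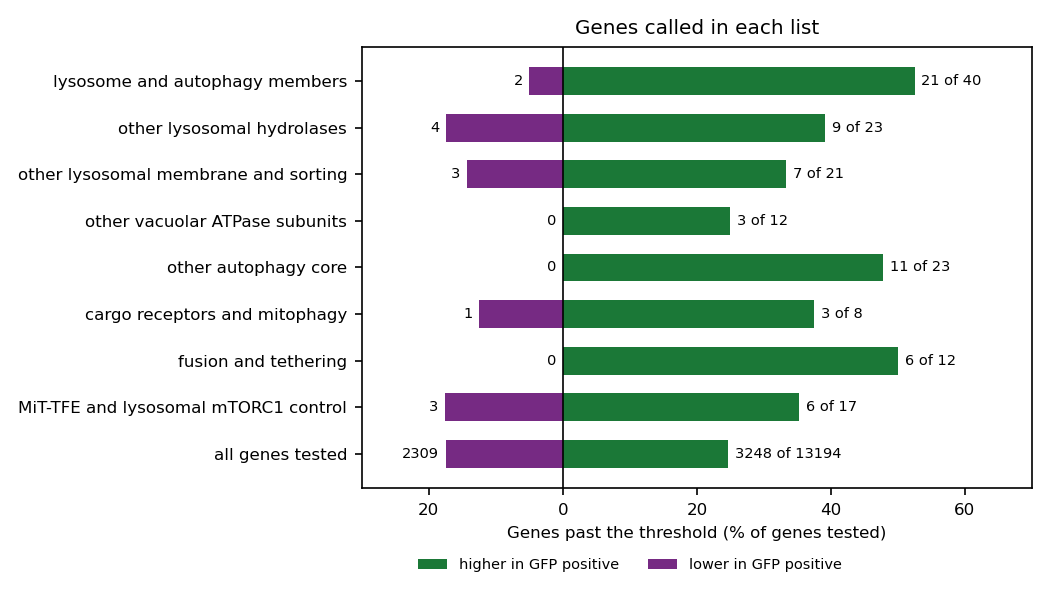
Share of genes tested that rose (to the right) or fell (to the left) in GFP positive cells, in percent, for the members, 7 related lists and all genes tested; numbers beside the bars are genes. The share that rose is 52.5% for the members and 24.6% for all genes, and runs from 25% to 50% in the related lists.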

How the data were processed

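Total RNA of 6 sorted samples was biotin-labelled and hybridised to 1 array each, per the labels' protocols. Signals were deposited by the authors on a log2 scale, judged by their range, for 45101 probe sets. Affymetrix Expression Console, with no version, is the tool in the submitters' processing notes. Probe summarisation, background correction and normalization are not described in the sources used. Precision is limited by having 6 arrays.

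The deposited values were used unchanged. Of the probe sets 34945 carry 1 gene symbol, and RefSeq gene records changed 0 symbols. Genes under the 40th percentile of mean signal (1.27) were left out. GFP positive was compared with GFP negative using limma 3.58.1 in R 4.3.3 (lmFit, eBayes, group only, two-sided), adjusted over all genes tested. The procedure was tested on simulated data drawn independently for each sample. Such data lack the shared deviations of samples with the same replicate number given below, so their effect was not tested there. Quality measures had exact permutation tests, whose smallest p here is 0.1. Although the membership rule uses gene names alone, the members, lists and tests were proposed with earlier results of these data known. Sample values are given for called members that changed by at least 0.5 and for Tfeb, Tfe3, Sqstm1 and Lamp2, and from each related list up to 3 genes per direction by p. Samples with the same replicate number deviated together (r = 0.47, 0.35 and 0.25 across genes), which was taken as pairing although the labels do not state it. The main comparison, with its SE and p-values, did not use this pairing, which entered only through the replicate block. Alternatives were other scalings, dim levels, probe set rules, priors, the replicate block and left-out samples.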

Additional observations from a re-analysis of the deposited data

How the results depend on the processing

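Over 15 alternatives, 16 of the 23 called members were called the same way each time they were tested and 0 changed sign. In at least 1 alternative 8 members that were not called changed sign. Cd68, 1 of the 16, was tested in 14 alternatives, as the 60th percentile dim level left it out. The other 7, Ctsz, Npc2, Lamp2, Laptm4a, Sqstm1, Map1lc3b and Gabarapl2, lost the call in at least 1, and 5 that did not pass (Ctsl, Laptm5, Atp6v1h, Tfeb and Atg5) passed in at least 1. The cause was not tested. Members higher numbered 15 to 22 and members lower 2 to 4, with 4 lower after quantile normalization (Tfeb and Atg5 added) and 16 to 20 higher without single samples. With the replicate block 21 members rose and 2 fell and all 23 calls remained, and in the related lists, with 46 rises and 12 falls, the block ended 3 calls and added 4 rises and 1 fall. Over the array 3248 genes rose and 2309 fell, against 2506 and 3819 after median centring. Without GFP positive 3 and GFP negative 1 together, 2085 rose and 1262 fell over the array and 7 related genes fell, against 11. Without single samples the array gave 2633 to 3159 rises and 1597 to 2427 falls, and the related lists 36 to 42 rises. Of 56 called related genes 32 were called in every setting in which they were tested and 0 changed sign. Among the 32, Galc and Mfsd8 were tested in 14 of the 15 settings. The promoter letters were counted with the shorter E-box as the alternative. Signal over background limits dim genes such as Cd68, Mfsd8 and Galc most, whose changes shrank to 0.15, 0.10 and -0.11 with 32 added on the linear scale.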
